A study of Mus musculus with 6 samples.

Results

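The 40 genes described here build the N-glycan of secreted and membrane proteins, attach it, trim it and help the finished glycoproteins leave the endoplasmic reticulum (ER). They were chosen by name for their place in the pathway, with earlier results of these data known, and all 40 were measured, out of 18193 genes on the array. Each gene is represented by the brightest of its probe sets (groups of short probes for one transcript) over the 6 arrays, and the 40 genes have 75 probe sets in all. The cells were CT26, a colon carcinoma line of BALB/c mice. The control group, 3 samples, was transfected with the empty plasmid pU6-m3. The shSep15 group, also 3 samples, received the same plasmid with a short hairpin RNA against Sep15, now named Selenof, so both groups carried the plasmid. Only 1 hairpin sequence was used, and the labels do not say whether the cells were clones or pools. RNA of each sample was read on 1 Affymetrix Mouse430_2 array, and all levels below are log2 values made with RMA, a method that corrects and normalizes arrays together.

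N-glycosylation starts on dolichol, a lipid of the ER membrane. Enzymes on the cytosolic face add the first sugars, the lipid is flipped, and enzymes on the luminal face complete a branched glycan that ends in glucose. The oligosaccharyltransferase moves this glycan onto asparagines of new proteins. Glucosidases then remove the glucoses, and a glycan with one glucose left is bound by the lectin chaperones calnexin and calreticulin, which hold the protein while it folds. The glucosyltransferase UGGT puts a glucose back on misfolded proteins, and the Sep15 protein is a partner of UGGT. Mannosidases and the Golgi enzymes that follow remodel the glycan, and lectins of the export pathway carry glycoproteins onward.

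The hairpin was built from this stretch of the Selenof cDNA, shown because it defines the perturbation, 5′ to 3′ and not placed on a genome here.
Sep15 hairpin target: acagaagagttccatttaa
Selenof read 12.41, 12.44 and 12.35 on the control arrays and 9.34, 9.59 and 9.50 on the shSep15 arrays. The groups did not overlap, and the log2 difference was −2.92 (SE 0.08, limma adjusted p = 2.43e-07). A dimmer probe set of Selenof, near 4.70 in both groups, lay under the background level and gives no reading. That background level, log2 6.02, is the 95th percentile of the mean values of olfactory and vomeronasal receptor probe sets.

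Arrays of one group correlated with each other at 0.993 to 0.995 and with the other group at 0.977 to 0.979 across probe sets. Of 10 colon epithelium markers, 4 (Krt8, Krt18, Krt20 and Epcam) lay above background in at least 1 group, while Krt19, Cdh1, Vil1, Cdx1, Cdx2 and Cldn7 did not. The epithelial list averaged log2 5.81 to 5.99 per array in control cells and 5.34 to 5.53 in shSep15 cells, and of its 10 genes Krt18 (−2.16) and Krt20 (−2.13) fell while the others did not pass the threshold. All 6 fibroblast markers lay above background, with list means of 9.12 to 9.27 and of 8.25 to 8.83, but they moved apart: Col1a1 (1.32), Col1a2 (0.64) and Pdgfra (1.35) rose, and Col3a1 (−2.27), Dcn (−1.72) and Pdgfrb (−3.36) fell. Of 5 leukocyte markers measured, Cd3e, Cd68 and Csf1r were above background and the pan-leukocyte gene Ptprc and Itgam were not; list means were 5.88 to 6.10 and 5.62 to 5.80. Of the leukocyte markers above background Cd68 fell (−1.48) and the other two did not pass the threshold. Of 4 endothelial markers only Kdr was above background, with list means of 5.29 in control cells and of 5.29 to 5.33 after knockdown. The part of these marker levels in the differences below was not tested, and in bulk RNA fewer cells of a type and less RNA per cell cannot be told apart.

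The N-glycan genes moved in both directions, with more rises than falls. All 40 lay above background in at least 1 group. In shSep15 cells 14 of them rose and 7 fell (limma, adjusted p under 0.05 over all probe sets), while 19 did not pass the threshold. Among all genes 12.2% rose and 12.8% fell; among the 11131 genes above background 19.2% rose and 20% fell. The 21 changed members are 52.5% of the list, against 25% of all genes and 39.2% of the genes above background. Bright genes were called more often: of genes with a mean of at least log2 9, 49.1% changed, and of the 31 members that bright, 54.8% did. The median difference of the 40 was 0.21, against 0.01 for all genes and 0.01 for the genes above background; without control 3 it was 0.12. On 20 members every shSep15 array lay above every control array, and on 9 every one lay below. Such separation was seen in 27.8% and 27.4% of the genes above background.

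**Figure D1:**
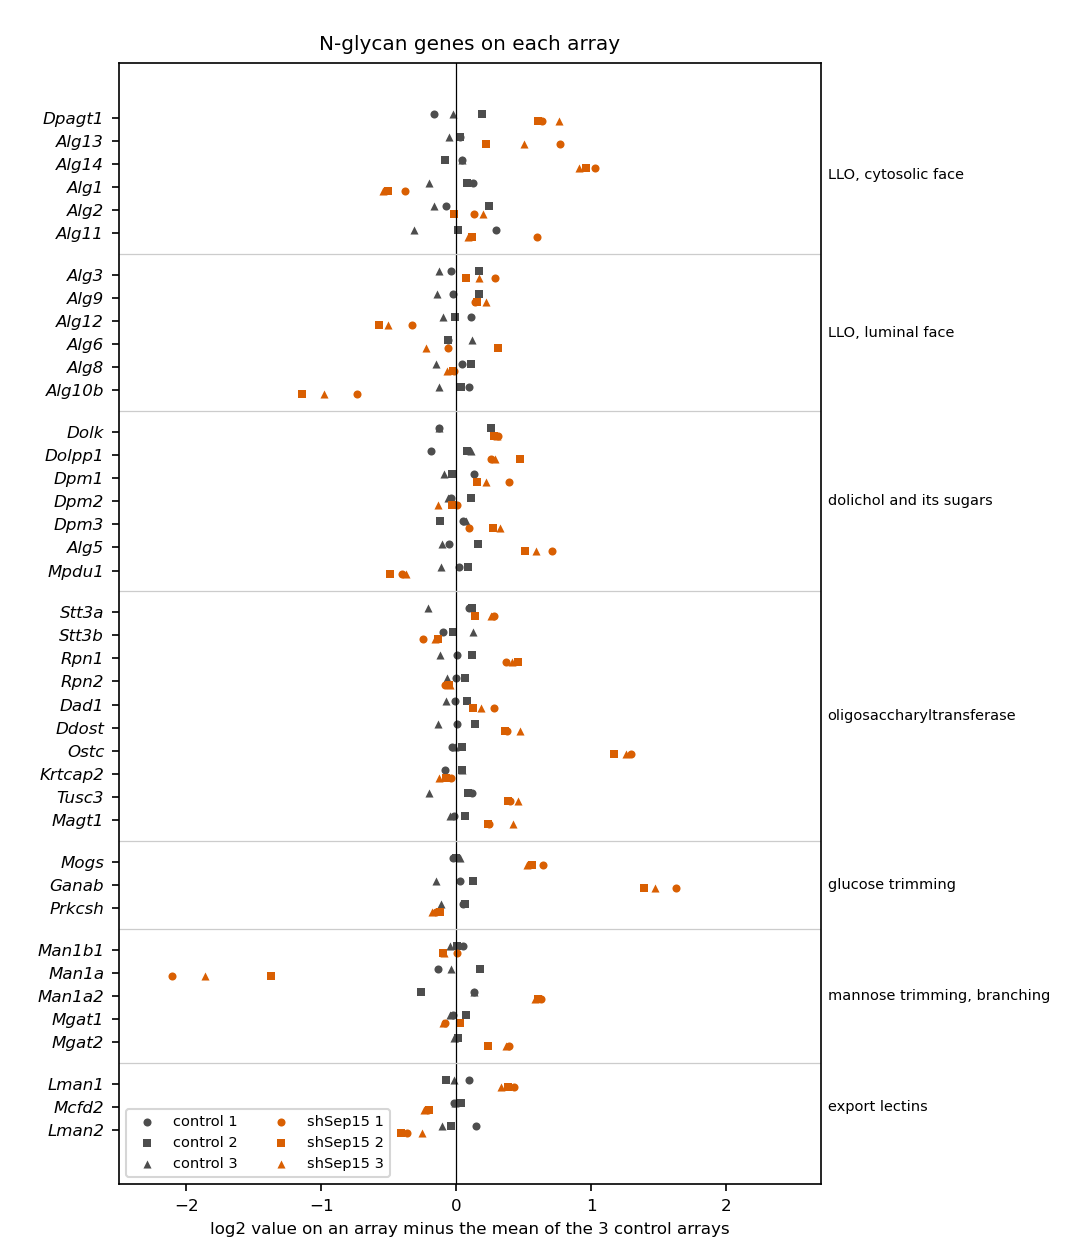
Each point is the log2 value of a gene on 1 array minus the mean of the 3 control arrays, for the 40 N-glycan genes grouped by role (LLO, lipid-linked oligosaccharide; grey, control; orange, shSep15; symbols mark replicates 1 to 3). Ganab and Ostc stand farthest to the right and Man1a farthest to the left, each with all 3 shSep15 arrays apart from the controls.

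Of the 14 rises, 8 lay on chromosomes 3, 4, 18 and X. On chromosome 3, where 42.5% of the genes above background rose and the median difference was 0.26, 4 of 6 members rose (Alg14, Alg5, Ostc and Man1a2). On chromosomes 3, 4, 17, 18 and X together, 8 of 13 members rose and 1 fell. Medians of genes above background on the latter 4 were 0.16, 0.16, −0.30 and −0.05. Of these genes 32.8%, 31.7%, 5.99% and 19.6% rose, and 8.73%, 8.41%, 46.1% and 32.8% fell. Lman1, on chromosome 18, and Alg13 and Magt1, on X, thus rose where falls outnumbered rises among the genes above background. On the remaining chromosomes 6 of 27 members rose and 6 fell, where 16.3% of genes above background rose and 20.8% fell; 37.1% of those genes changed in all, and 44.4% of the 27. The median difference was still 0.17 among these 27, and 0.20 over the 40 once each chromosome's own median was subtracted. Chromosome X was set apart although the medians of chromosomes 1 (−0.08) and 13 (0.07), kept among the remaining ones, were larger in size than its own. What lies behind the chromosome medians was not tested.

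**Figure D2:**
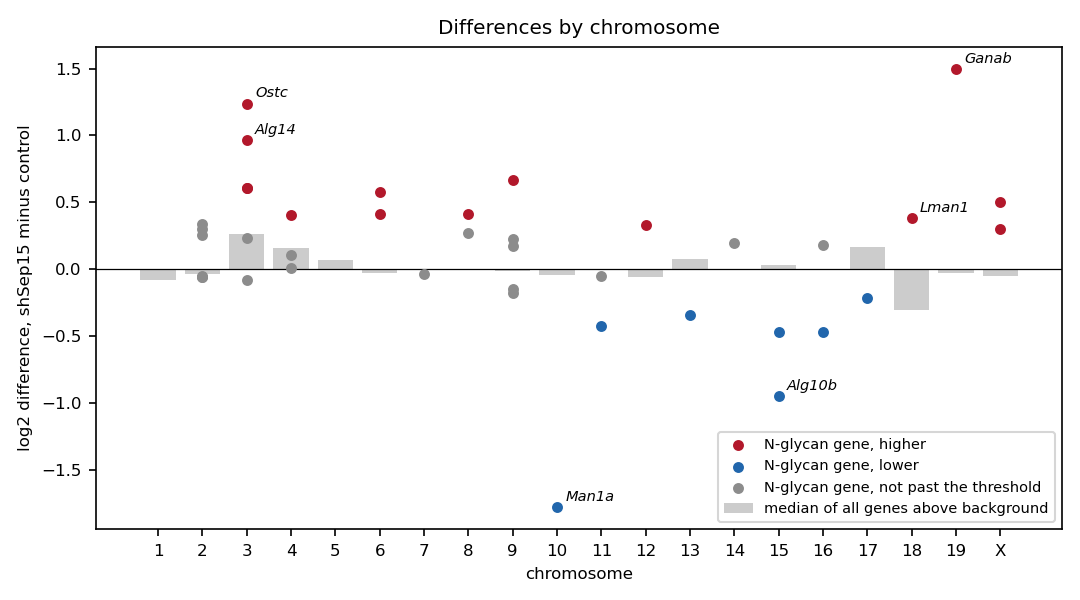
Log2 difference (shSep15 minus control) of each N-glycan gene by chromosome, with bars for the median of all genes above background on that chromosome. Of the 6 genes on chromosome 3, 4 rose, where the chromosome's median is 0.26; Lman1 rose on chromosome 18, where the median is −0.30.

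The enzymes that start the glycan on the cytosolic face moved in both directions: 3 of 6 rose and 1 fell, with a median of 0.38. That is 66.7% changed, against 39.2% of the genes above background. Dpagt1, which puts the first sugar on dolichol phosphate and is the target of tunicamycin, read 8.67, 9.02 and 8.81 on control arrays and 9.47, 9.44 and 9.60 on shSep15 arrays. Its rise of 0.67 (SE 0.12, limma adjusted p = 0.00311) is a 1.59-fold difference, and the groups did not overlap. Alg14 anchors the next transferase in the membrane. It read 10.01, 9.89 and 10.01 in control cells and 11.00, 10.93 and 10.88 in shSep15 cells, a rise of 0.97 (SE 0.08, limma adjusted p = 4.37e-05). A dimmer probe set of Alg14 above background rose as well, by 1.15. Relative to the other genes of chromosome 3, the difference of Alg14 was 0.71. Alg13, the catalytic partner of Alg14, was closer to background and rose by 0.50 (SE 0.15, limma adjusted p = 0.0445), from 6.89 to 6.97 in control to 7.16 to 7.71 in shSep15 samples.

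The mannosyltransferases that follow on the same face included no rise. Alg1, which adds the first mannose, fell by 0.47 (SE 0.12, limma adjusted p = 0.0197): its control arrays read 9.36, 9.31 and 9.04 and its shSep15 arrays 8.86, 8.73 and 8.70. Alg2 (0.11, 95% interval −0.17 to 0.38) and Alg11 (0.27, −0.17 to 0.70) did not pass the threshold, and their groups overlapped. The calls of Alg13 and Alg1 did not hold in every fit with 1 array left out. That of Alg13 ended when any array but shSep15 2 was left out (limma adjusted p 0.0986 to 0.137), with differences of 0.36 to 0.64 over the 6 fits. That of Alg1 ended without control 1 or 2 or shSep15 2 or 3 (0.0706 to 0.0813), with differences of −0.57 to −0.41.

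On the luminal face no gene rose and 2 of 6 fell on the brightest probe sets. That is 33.3%, against 39.2% of the genes above background. Alg10b, which adds the last glucose of the precursor, read 10.65, 10.59 and 10.43 in control samples and 9.82, 9.41 and 9.58 in shSep15 samples. It fell by 0.95 (SE 0.12, limma adjusted p = 0.000453), to 51.7% of the control level, and the groups did not overlap. The other probe set of Alg10b is nearly as bright and was higher by 0.17 (limma adjusted p = 0.239), so the fall was seen by only 1 of 2 probe sets. Alg12, a mannosyltransferase, fell by 0.47 (SE 0.12, limma adjusted p = 0.0200), from 8.61, 8.50 and 8.41 to 8.18, 7.93 and 8.0. Both further probe sets of Alg12 fell too, by 0.52 and 0.46. Its call ended without control 1 or 2 or shSep15 2 or 3 (limma adjusted p 0.0613 to 0.0759). Its promoter is shown because it is the only one of the 33 available for these genes with a match to the ER stress response element, a binding sequence of ER stress factors (RefSeq, GRCm38.p6, 5′ to 3′, fixed letters of the element in capitals).
Alg12, chr15:88819505-88819553, minus strand: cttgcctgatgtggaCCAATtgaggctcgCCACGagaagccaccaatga

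The remaining luminal enzymes did not pass the threshold. They were the mannosyltransferases Alg3 (0.18, 95% interval −0.08 to 0.44) and Alg9 (0.17, −0.07 to 0.42) and the glucosyltransferases Alg6 (0.01, −0.33 to 0.35) and Alg8 (−0.04, −0.26 to 0.18). The 6 arrays overlapped for each of these 4. Alg6 adds the first glucose, and its brightest probe set, at 6.12 to 6.65, lay only slightly above background. A dimmer probe set of Alg6 read 5.42, 5.12 and 4.90 in control cells, under background, and 6.94, 6.01 and 6.88 in shSep15 cells (log2 difference 1.46, SE 0.24, limma adjusted p = 0.0024).

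Of 7 genes that supply dolichol phosphate and its sugars, 1 rose and 1 fell (28.6%, against 39.2% of the genes above background). Alg5 makes dolichol phosphate glucose, the donor for the luminal glucosyltransferases. It read 10.35, 10.57 and 10.30 in control and 11.11, 10.91 and 11.00 in shSep15 samples, a rise of 0.60 (SE 0.09, limma adjusted p = 0.00172) with no overlap. Against the chromosome 3 median the difference of Alg5 was 0.34. Mpdu1, needed to use the dolichol-linked sugars, fell by 0.42 (SE 0.10, limma adjusted p = 0.0169), from 9.28, 9.34 and 9.14 to 8.85, 8.76 and 8.88. Without control 1 or 2 or shSep15 2 the call of Mpdu1 ended (limma adjusted p 0.0501 to 0.0671).

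The kinase Dolk (0.30, 95% interval 0.01 to 0.59), the phosphatase Dolpp1 (0.34, 0.06 to 0.62) and the mannose donor synthase Dpm1 (0.25, 0.04 to 0.47) had every shSep15 array above every control array but missed the adjusted threshold (limma adjusted p 0.156, 0.0980 and 0.101). Its partner subunits were close to 0 or near background: Dpm2 gave −0.05 (−0.26 to 0.15), and Dpm3, at 5.84 to 6.28 on all arrays, 0.23 (−0.03 to 0.49). Of the 6 members on chromosome 2, which include Dolk, Dolpp1, Dpm1 and Dpm2, none passed the threshold. On that chromosome 13.4% of the genes above background rose and 21.3% fell.

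In the oligosaccharyltransferase 5 of 10 subunits rose and 0 fell, with a median of 0.26. All 10 had means above log2 9. Among all genes with a mean of at least log2 9, 49.1% changed, close to the 50% of these subunits. Ostc, a subunit that belongs to the STT3A form of the complex, the one that works on proteins as they enter the ER, rose most. Its control arrays read 11.36, 11.44 and 11.39 and its shSep15 arrays 12.69, 12.56 and 12.65. The rise of 1.24 (SE 0.06, limma adjusted p = 2.17e-06) is 2.36-fold, and the groups lay far apart. The dimmer probe set of Ostc rose by 2.03 (SE 0.23, limma adjusted p = 0.00027), from below background. Ostc lies on chromosome 3, and its difference relative to that chromosome's median was 0.98. Krtcap2, the other subunit specific to the STT3A form, is on the same chromosome and did not pass the threshold (−0.08, 95% interval −0.20 to 0.04); its arrays, at 12.19 to 12.36, overlapped.

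The catalytic subunits themselves did not pass the threshold on their brightest probe sets. Stt3a was 0.23 higher (95% interval 0.02 to 0.44, limma adjusted p = 0.141) and Stt3b 0.18 lower (−0.34 to −0.03, limma adjusted p = 0.109). The dimmer probe set of Stt3b fell, however, by 0.41 (SE 0.08, limma adjusted p = 0.0047), from 11.08, 10.99 and 10.88 to 10.57, 10.54 and 10.61. Means over probe sets gave Stt3b a fall of 0.29 (limma adjusted p = 0.0027). The probe set in use therefore decides the call of Stt3b, while its sign was the same on both.

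Among the shared subunits, the ribophorin Rpn1 read 11.61, 11.72 and 11.49 in control and 11.98, 12.06 and 12.02 in shSep15 cells, a rise of 0.41 (SE 0.07, limma adjusted p = 0.00254). The 4 further probe sets of Rpn1 above background rose by 0.35 to 0.42. Ddost rose by 0.40 (SE 0.08, limma adjusted p = 0.00595), from 11.28, 11.41 and 11.13 to 11.65, 11.64 and 11.74. Relative to the median of chromosome 4 the difference of Ddost was 0.25. Rpn2 (−0.06, 95% interval −0.20 to 0.08) and Dad1 (0.19, 0.02 to 0.36) did not pass the threshold, although the dimmer probe set of Dad1 rose by 0.35 (limma adjusted p = 0.0384). On the brightest probe sets, the subunits of this one complex that passed the threshold all rose, and the other 5 did not pass.

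Tusc3 and Magt1 are alternative oxidoreductase subunits of the STT3B form, which glycosylates sites that the STT3A form has missed. Tusc3 read 10.48, 10.45 and 10.16 in control and 10.76, 10.74 and 10.82 in shSep15 samples, a rise of 0.41 (SE 0.10, limma adjusted p = 0.0154). Magt1 rose by 0.30 (SE 0.09, limma adjusted p = 0.0416), from 9.93, 10.02 and 9.91 to 10.20, 10.19 and 10.38. Neither call was firm. Tusc3 lost it without any 1 of the shSep15 arrays (0.0503 to 0.0704), and Magt1 without any 1 of the 6 arrays (0.0652 to 0.16). The second probe set of Magt1 was higher by only 0.04 (limma adjusted p = 0.879).

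**Figure D3:**
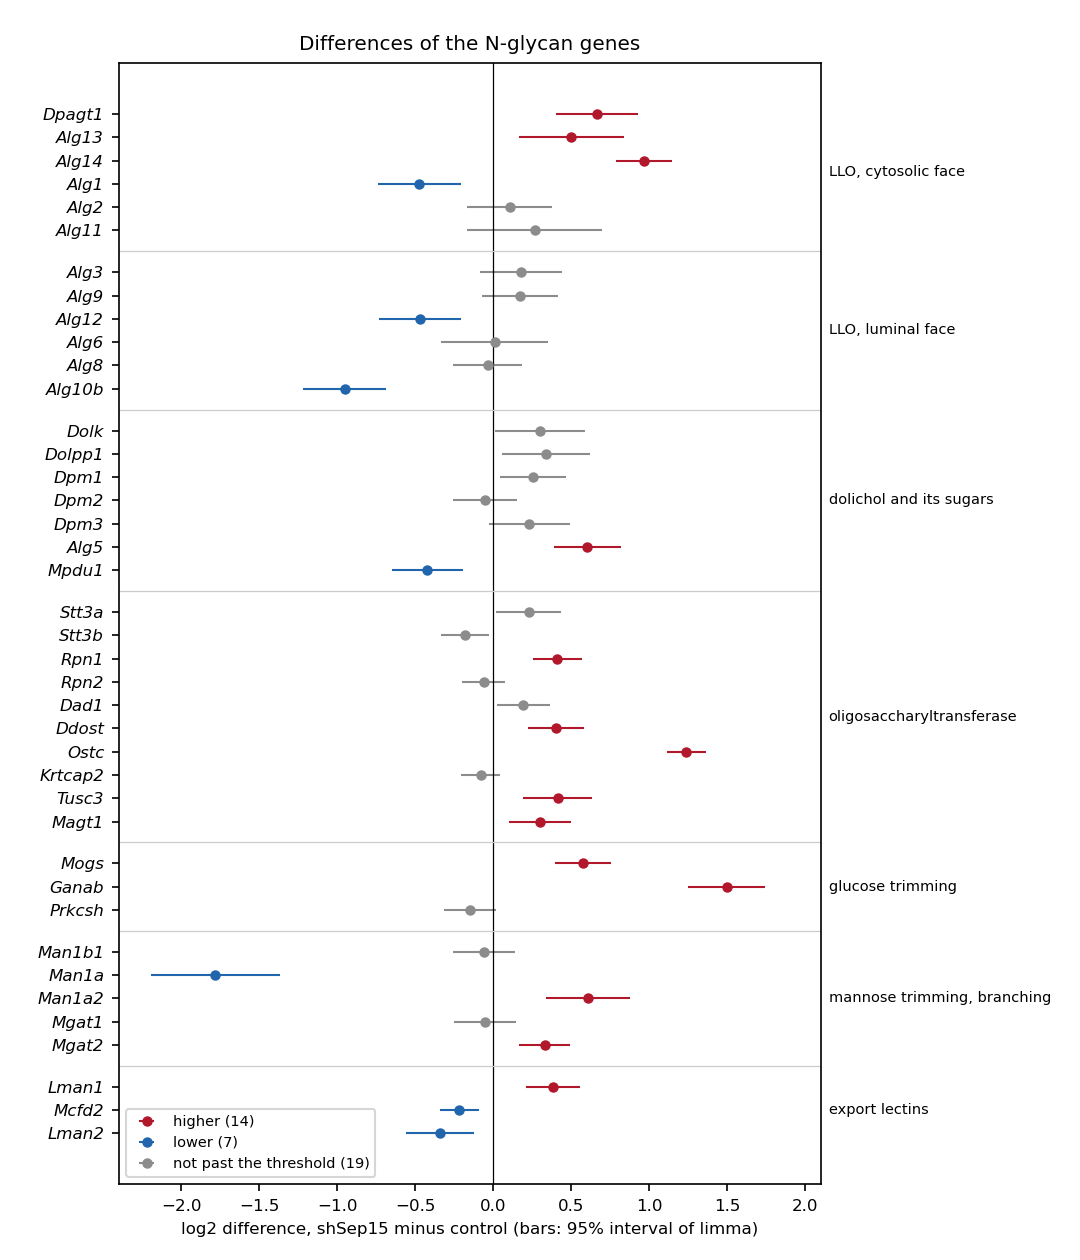
Log2 difference (shSep15 minus control) of each N-glycan gene with its 95% interval from limma, in the order of the pathway (LLO, lipid-linked oligosaccharide); red rose, blue fell and grey did not pass the threshold. There were 14 rises, 7 falls and 19 genes past neither side, and the oligosaccharyltransferase and glucose trimming groups hold no fall.

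Glucose trimming gave the greatest rise of the 40 genes. Ganab is the catalytic subunit of glucosidase II, which removes the inner glucoses and so brings glycoproteins to and releases them from calnexin and calreticulin. It read 8.86, 8.95 and 8.68 on control arrays and 10.46, 10.22 and 10.30 on shSep15 arrays. The difference of 1.497 (SE 0.11, limma adjusted p = 2.5e-05) is a 2.82-fold rise, with the groups far apart. On its chromosome, 19, the median of genes above background was −0.03. A second probe set of Ganab was under background in both groups. Mogs, glucosidase I, which removes the outermost glucose, rose by 0.58 (SE 0.08, limma adjusted p = 0.000818), from 9.83, 9.85 and 9.88 to 10.49, 10.41 and 10.38. Prkcsh, the noncatalytic partner of Ganab that keeps glucosidase II in the ER, did not rise with it. It read 11.10, 11.11 and 10.93 in control and 10.89, 10.93 and 10.87 in shSep15 samples (−0.15, 95% interval −0.32 to 0.02, limma adjusted p = 0.225).

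The mannosidases of the Golgi moved apart. Man1a, one of the Golgi enzymes that cut mannoses ahead of branching, read 6.55, 6.86 and 6.64 in control cells and 4.57, 5.31 and 4.82, under background, in shSep15 cells. It fell by 1.78 (SE 0.18, limma adjusted p = 0.000161), with no overlap. The size of this fall is not exact and cannot be ranked against the others, because the lower level is background. A dimmer probe set of Man1a, under background in both groups, differed by −0.90. Man1a2, the related Golgi mannosidase, rose by 0.61 (SE 0.12, limma adjusted p = 0.00613), from 9.60, 9.20 and 9.60 to 10.09, 10.07 and 10.05. Of its 3 further probe sets above background 2 rose, by 0.63 and 1.41, and the dimmest differed by −0.18 (limma adjusted p = 0.416). Man1a2 also lies on chromosome 3, and stood 0.35 above its median.

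Man1b1, the mannosidase that works earlier, in the quality control of misfolded glycoproteins, gave −0.06 (95% interval −0.26 to 0.14). The transferases that begin the branches differed in their calls. Mgat1, which opens the way to hybrid and complex glycans, gave −0.05 (−0.25 to 0.15). Mgat2, which starts the second branch, rose by 0.33 (SE 0.07, limma adjusted p = 0.0101), from 10.73, 10.74 and 10.71 to 11.12, 10.96 and 11.10. Its dimmer probe set was higher by 0.56 (limma adjusted p = 0.0518). The call of Mgat2 ended without shSep15 3, by a narrow margin (limma adjusted p = 0.0507).

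All 3 genes of the export lectin group changed, 1 up and 2 down. Each had a mean above log2 9, and 49.1% of all genes with a mean of at least log2 9 changed. Lman1, also known as ERGIC-53, carries glycoproteins such as clotting factors from the ER toward the Golgi. It read 10.58, 10.41 and 10.47 in control and 10.92, 10.87 and 10.82 in shSep15 samples, a rise of 0.38 (SE 0.08, limma adjusted p = 0.00679). Lman1 lies on chromosome 18, where 46.1% of the genes above background fell; it stood 0.69 above that chromosome's median. Its 2 other probe sets above background gave 0.26 and −0.08 and were not called, and the mean of the 3 lost the call (0.19, limma adjusted p = 0.152). Mcfd2, the calcium-binding partner with which Lman1 forms a cargo receptor, fell by 0.22 (SE 0.06, limma adjusted p = 0.024), from 11.57, 11.62 and 11.58 to 11.38, 11.39 and 11.35. Lman2, the lectin VIP36, fell by 0.34 (SE 0.10, limma adjusted p = 0.0344), from 10.36, 10.18 and 10.11 to 9.85, 9.80 and 9.96, while its dimmer probe set gave 0.03. On each of these 3 genes the groups did not overlap. Among the genes above background, 27.8% had every shSep15 array above every control array and 27.4% every one below. Leaving out single arrays ended the call of Mcfd2 for control 2 and each shSep15 array (0.0620 to 0.0878) and that of Lman2 for each array but control 3 (0.0571 to 0.121).

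**Figure D4:**
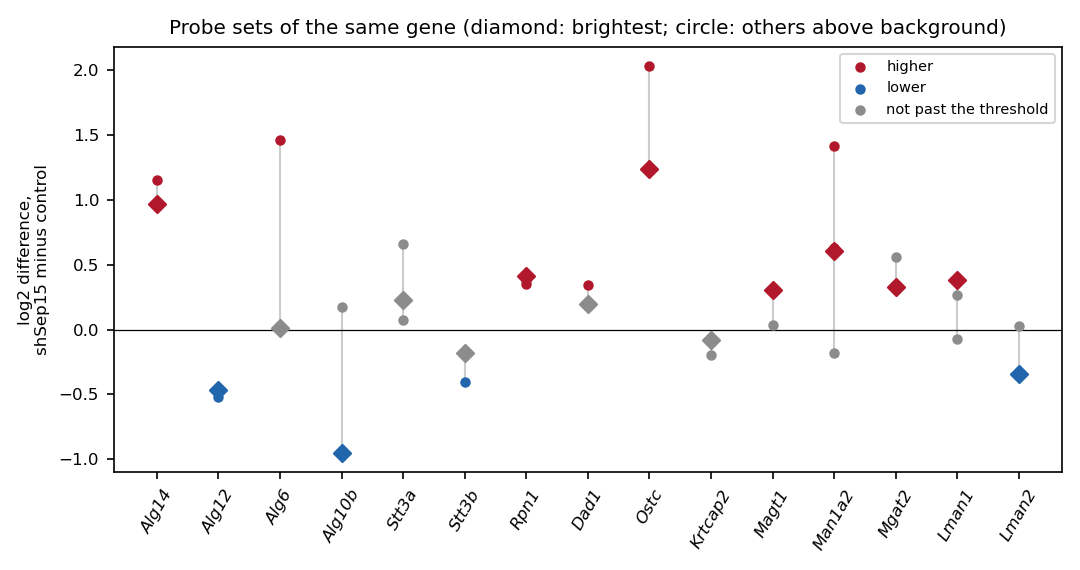
Log2 difference (shSep15 minus control) of every probe set above background for the N-glycan genes that have more than 1; diamonds mark the brightest, which gives the gene its value. Probe sets of Rpn1, Alg12 and Alg14 lie close together, whereas those of Alg6, Alg10b and Man1a2 spread widely.

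Of the 21 changed members, 12 kept their call whichever array was left out: Dpagt1, Alg14, Alg5, Rpn1, Ddost, Ostc, Mogs, Ganab, Man1a2 and Lman1 among the rises and Alg10b and Man1a among the falls. The other 9, of which 5 are falls, lost it in at least 1 such fit. The falls thus numbered 3 without control 1, 2 without control 2, 2 without shSep15 2 and 3 without shSep15 3, against 7 with all arrays. Among all genes the share called was 24.97% with all arrays and 19.2% to 23.0% with 1 array left out.

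Other genes of the same pathway were counted from a separate list. Of 64 listed, 63 were measured; 13 rose and 7 fell, which is 31.7%, between the 25% of all genes and the 39.2% of genes above background, where 59 of the 63 lay. Their median difference was 0.09. The rises numbered 8 without control 1, shSep15 1 or shSep15 2, and 7 without shSep15 3. Among the lectin chaperones and their folding sensor, Calr rose by 0.38 (SE 0.06, limma adjusted p = 0.00157), with all 3 of its probe sets called. Its partner Canx gave −0.08 (95% interval −0.20 to 0.04). Pdia3, the oxidoreductase that works with both, rose by 0.28 (limma adjusted p = 0.0263), a call lost without any array but control 2 (0.0566 to 0.117). Uggt1 was called on its brightest probe set (0.55, limma adjusted p = 0.00307) but not on the mean of its probe sets (0.23, 0.0584), and Uggt2 was under background.

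The supply of dolichol and sugar nucleotides held the strongest falls among these other genes. Of its 14 genes 2 rose and 2 fell (28.6%, against 39.2% of genes above background), with a median of 0.05. Pmm1, a phosphomannomutase, fell from 10.77, 11.05 and 10.83 to 9.79, 9.66 and 9.51 (log2 difference −1.23, SE 0.11, limma adjusted p = 6.32e-05). Gnpnat1, which acetylates glucosamine phosphate on the way to UDP-GlcNAc, fell from 11.73, 11.95 and 11.71 to 10.81, 10.44 and 10.63 (−1.17). Gmppb, a maker of GDP-mannose (0.61), and Pgm3, a later enzyme of UDP-GlcNAc synthesis (0.56), rose, each with a call lost in 5 of the 6 fits without 1 array (limma adjusted p 0.0549 to 0.0952 and 0.0548 to 0.133). Of 13 Golgi branching and capping genes, 1 rose, Mgat5 (0.55), and 1 fell, the sialyltransferase St3gal4 (−0.97). That is 15.4%, under the 39.2% of genes above background. The call of Mgat5 ended without any array but shSep15 2 (limma adjusted p 0.0596 to 0.113). Ngly1, which strips glycans from proteins sent for degradation, fell by 0.50.

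Of 24 genes of the COPII coat, which buds vesicles from the ER, and of its cargo receptors, 6 rose and 2 fell. That is 33.3%, against 39.2% of the genes above background. The cargo-binding coat subunits Sec24d and Sec24b, both on chromosome 3, rose by 1.17 and 0.91 (limma adjusted p = 1.24e-05 and 0.00019), or 0.91 and 0.65 relative to its median. Lman2l, a relative of Lman2, rose by 0.73 and Ergic1, on chromosome 17, by 0.89.

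Promoters were read for the elements through which ER stress factors act, because those factors are known to drive several genes of this pathway. RefSeq promoter windows of GRCm38.p6, from 250 bases before to 50 after a gene start, were found for 33 of the 40 genes. The ER stress response element, CCAAT and CCACG separated by any 9 bases, was searched on both strands, as were the others. It matched in 0.137% of 27025 genes and in 1 of the 33, Alg12, whose window is shown above. Of 56 other pathway genes with a window, it matched in 2, Calr and Canx. ERSE-II, ATTGG and CCACG separated by any 1 base, matched in 0.0444% of genes and, among the 33, in Krtcap2, after its start. The unfolded protein response element, TGACGTGG, matched in 0.714% of genes and in 0 of the 33. Of the 56 other pathway genes it matched in 3: Sec24d, Kdelr3, an ER retrieval receptor, and, after the start, Sec23a, a COPII coat subunit. Kdelr3 and Sec23a are named for these matches, after their values were seen. The elements share letters, but each of these genes matched only 1. The other windows with a match upstream of the start are printed 5′ to 3′ on the strand of the gene, with the fixed letters of the element in capitals and the genome position given first.
Calr, chr8:84847060-84847108, minus strand: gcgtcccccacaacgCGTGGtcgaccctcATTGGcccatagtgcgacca
Canx, chr11:50325785-50325833, minus strand: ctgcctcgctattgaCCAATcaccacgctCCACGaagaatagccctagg
Sec24d, chr3:123267455-123267492, plus strand: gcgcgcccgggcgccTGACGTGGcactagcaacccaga
Kdelr3, chr15:79516363-79516400, plus strand: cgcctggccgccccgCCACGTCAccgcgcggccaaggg
The genes with these elements did not share a direction: Calr and Sec24d rose, Alg12 and Kdelr3 (−0.49, limma adjusted p = 0.009) fell, and Canx, Krtcap2 and Sec23a (0.25, limma adjusted p = 0.15) did not pass the threshold. Ganab and Alg14, the greatest rises among the 33, had none of the 3 elements in these windows. Exact matches are rare among all genes (0.137%, 0.0444% and 0.714%), so this lack cannot tell whether ER stress factors act on them. No window was available for 7 of the 40 genes, among them Ostc. Whether ER stress factors act on any of these genes was not tested.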

How the data were processed

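RNA of 6 CT26 samples was extracted with TRIzol, labelled with biotin and hybridised to Affymetrix arrays of type Mouse430_2, per the labels' protocols. The deposited log2 values, 1 per probe set and array, were made with RMA, per the submitters' processing notes; its version is not given in the sources used here. They were used as deposited (3.31 to 14.24). Arrays carry no read depth, and 3 per group limit the precision. Titles gave the groups. The series calls the samples of a construct different mRNA samples, not separate cultures, so p-values measure the spread between these samples, which may be technical.

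After 64 array controls were set aside, 45037 probe sets were fitted with limma 3.58.1 (intensity trend, group as the only term) in R 4.3.3, two-sided, and adjusted by Benjamini-Hochberg over all of them at 0.05. A single gene symbol was given for 34945 of them, several for 932 and none for 9160; symbols were updated through RefSeq GRCm38.p6, which held 34741. Differences are shSep15 minus control, and 95% intervals come from limma and are not adjusted. The fit was checked on simulated data.

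Members and lists were chosen with earlier results of these data known. All members are named; other pathway genes are named if past the threshold with an absolute difference of at least 0.5, as are Uggt1, Uggt2, Calr, Canx and Pdia3; Kdelr3 and Sec23a were added for their promoter matches. Same-numbered repeats did not all deviate together. Their deviations from the group means correlated at 0.38 for repeat 1, but at −0.15 and −0.02 for repeats 2 and 3. The numbers were therefore not taken as pairs in the main fit.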

Additional observations from a re-analysis of the deposited data

Results flagged for a closer look

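In 2 genes a probe set that the comparison did not use lay higher in shSep15 cells while the brightest one was not called. The dimmer probe set of Alg6 was higher by 1.46 (SE 0.24, limma adjusted p = 0.0024), on all 3 shSep15 arrays. The dimmer probe set of Dad1 was higher by 0.35 (SE 0.10, limma adjusted p = 0.0384), also on all 3. Groups of 3 arrays are too small for a search for single outlying samples.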

How the results depend on the processing

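With 14 rises and 7 falls among the 40 genes as reported, the other settings with all 6 arrays (means of probe sets, no intensity trend, shifted medians, quantile normalization, only probe sets above background, array weights) gave 12 to 15 rises and 6 or 7 falls. The replicate block gave 13 and 7; it ended the call of Magt1 (limma adjusted p = 0.0643) and changed no other call among the 40. Leaving out 1 array gave 10 to 13 rises and 2 to 7 falls; falls came to 3 without control 1, 2 without control 2, 2 without shSep15 2 and 3 without shSep15 3. The median of 0.21 ranged from 0.12, without control 3, to 0.25. Other pathway genes (13 rises and 7 falls as reported) had 7 to 11 rises and 5 to 7 falls with 1 array left out, and 12 to 16 rises and 5 to 8 falls under the settings with all 6 arrays. With control 3 and shSep15 2 left out together, a setting chosen after seeing the data, members had 10 rises and 3 falls, other pathway genes had 8 rises, and all genes 1405 rises, against 2220. Without chromosomes 3, 4, 17, 18 and X, 6 members rose. Relative to its chromosome Selenof gave −3.18. Among members and named genes, signs turned where no call was made: Alg6 (−0.0179 with array weights, −0.0835 without control 3 and shSep15 2, −0.14 to 0.13 leaving out 1 array), Alg8 (−0.1105 to 0.0175 leaving out 1 array) and Canx (0.021 with means of all probe sets and of those above background). Relative to the chromosome median Alg2, Alg6 and Dpm3 gave −0.05, −0.15 and −0.03. The mean of all probe sets called Alg6 higher (0.73, limma adjusted p = 0.000569). The causes were not tested.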

Other observations

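Control 3 and shSep15 2 had the lowest upper quartiles of log2 values, 8.17 and 8.15, against 8.24 to 8.33 on the other 4 arrays. Across probe sets, their deviations from their group means correlated at 0.37, a description over probe sets that share the 2 arrays. Those of control 1 and shSep15 1 correlated at 0.38.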
